A study of Mus musculus with 16 samples.

Results

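The transcripts examined here encode the entry of pyruvate into the tricarboxylic acid (TCA) cycle and the enzymes of the cycle itself. The set holds 9 genes, chosen by symbol, of the 55487 genes in the deposited table. They are Pdha1, the catalytic alpha subunit of pyruvate dehydrogenase, the pyruvate dehydrogenase kinases Pdk2 and Pdk4, and the cycle enzymes Cs, Idh3a, Ogdh, Suclg1, Fh1 and Mdh2.

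Pyruvate dehydrogenase sits in the mitochondrial matrix and turns pyruvate into acetyl-CoA, which citrate synthase then joins to oxaloacetate. The cycle oxidises the resulting citrate back to oxaloacetate and passes electrons to the respiratory chain. The kinases phosphorylate the subunit encoded by Pdha1 and switch the complex off, and in liver Pdk4 is best known as a gene induced by fasting. The glucagon receptor, which is abundant on hepatocytes, signals through cyclic AMP and favours glucose output and amino acid breakdown over glycolysis.

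Livers were taken from 16 male C57BL6/J mice, housed individually, with 4 mice in each group and 1 RNA library per mouse. From 10 weeks of age all mice ate a 60 kcal% fat diet for 8 weeks, and were then given either a high fat, standard protein diet (SP, D08091803) or a high fat, high protein diet (HP, D08091801). On each diet they received vehicle or G108, a long-acting glucagon receptor agonist, at 2.5 nmol/kg under the skin once daily for 22 days. Tissue was collected on day 25 after a 4 h fast, so that all 4 groups share diet-induced obesity and the same short fast, and lean mice were not among them. These times follow the sample labels, and the study's methods give a younger age, a shorter time on the first fat diet, a lead-in on the SP or HP diet before treatment, and an earlier day of collection. The comparisons address what G108 does on each diet, what dietary protein does under each treatment, and whether the diet alters the response to G108.

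Expression was given as TPM, a share of a fixed total in each library corrected for transcript length. Each library held 27804258 to 45033380 reads, as recovered from the steps between low TPM values. The share taken by the major urinary protein (Mup) genes and their pseudogenes had a median of 45.3% in vehicle SP, 39.5% in vehicle HP, 21.3% in G108 SP and 24.9% in G108 HP. Across the 11839 genes tested, the median log2 fold change with G108 was 0.60 on SP and 0.09 on HP. With median-of-ratios factors, under which the typical gene has equal values across libraries, they became -0.01 and -0.0036. Each gene is therefore given on both scales, called TPM and scaled TPM below, and the part of the Mup share in the TPM differences was not tested. The 6 hepatocyte markers all exceeded 1 TPM and summed to between 14256 and 37729 TPM, whereas none of 7 muscle markers reached 1 TPM in any library. Summed blood markers ranged from 424 to 1421 TPM and overlapped between all 4 groups, as did Kupffer cell markers at 24.5 to 86.9 TPM. The highest blood sums were 1421 TPM in vehicle SP mouse 4 and 1364 TPM in G108 HP mouse 3. Vehicle HP reached 996 TPM and G108 SP 1020 TPM. The part of blood RNA in the values of those libraries was not tested. Of 4 adipocyte and 4 exocrine pancreas markers, 1 of each list reached 1 TPM in some library, and the pancreas one was Cela1. In bulk liver, fewer cells of a type and less RNA per cell cannot be told apart. The library of vehicle SP mouse 4 stood apart, with Cps1, the first enzyme of the urea cycle, at 58.7 TPM where the other vehicle SP mice had 164 to 201 TPM. Its share of TPM on the mitochondrial genome, 24.0%, was the highest of vehicle SP. That library also had the lowest TPM of vehicle SP in every gene of the set. In scaled TPM it was lowest in all of them but Cs and Idh3a. G108 HP mouse 3 also stood apart, with 37.3% of its TPM on the mitochondrial genome, against 21.0 to 27.4% in the other G108 HP mice and 13.8 to 24.0% in the remaining groups. It had the lowest TPM of its group in all 8 tested genes named below, and the lowest scaled TPM in 5 of the 8, and the part of that share in these values was not tested.

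Promoter sequences are shown for Fh1, the member that changed most, for Cs, the first enzyme of the cycle and the reference for the ratios given further on, and for Ogdh, which holds a full cyclic AMP response element. Each is the 250 bases before a RefSeq start site on GRCm38.p6, which is the only one in the table for Fh1 and Cs and the most upstream of 6 for Ogdh, printed 5′ to 3′ on the gene's strand, and 8 of the 9 genes had an entry (Idh3a did not). Capitals mark the palindromic element TGACGTCA and the half-sites TGACG or CGTCA that overlap or adjoin it.
Fh1, chr1:175625636-175625885, minus strand: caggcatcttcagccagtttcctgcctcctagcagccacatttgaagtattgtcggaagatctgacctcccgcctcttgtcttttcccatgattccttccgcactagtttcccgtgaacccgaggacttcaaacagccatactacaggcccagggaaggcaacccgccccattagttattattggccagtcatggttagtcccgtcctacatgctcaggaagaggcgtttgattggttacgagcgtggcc
Cs, chr10:128337477-128337726, plus strand: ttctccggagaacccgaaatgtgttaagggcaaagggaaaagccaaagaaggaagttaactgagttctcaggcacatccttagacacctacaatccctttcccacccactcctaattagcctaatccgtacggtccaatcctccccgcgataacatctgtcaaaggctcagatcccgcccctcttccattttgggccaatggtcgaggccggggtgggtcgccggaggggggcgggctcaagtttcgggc
Ogdh, chr11:6291347-6291596, plus strand: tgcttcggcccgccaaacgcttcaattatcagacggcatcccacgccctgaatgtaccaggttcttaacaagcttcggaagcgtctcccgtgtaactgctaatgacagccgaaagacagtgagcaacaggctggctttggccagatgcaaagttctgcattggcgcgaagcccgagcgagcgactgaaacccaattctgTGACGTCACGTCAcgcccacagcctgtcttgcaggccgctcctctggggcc
The full element began 51 bases before this most upstream start of Ogdh. It lay in the windows of 3 of the 6 Ogdh start sites, at 51, 60 and 113 bases before them, and the windows of the other 3 did not hold it. In Mdh2 it began 127 bases before the RefSeq start, which is 42 bases inside the first exon of a GENCODE transcript that starts further upstream, in its 5′ UTR. The 28 bases around it are shown for comparison with Ogdh.
Mdh2, chr5:135778512-135778539, plus strand: gagagaatcgTGACGTCAggcctcgctc
Of all 32851 RefSeq windows of the same length, 1.55% held TGACGTCA, and 17.8% held the half-site TGACG on either strand. Neither the windows of Fh1 and Cs nor those of Pdha1, Pdk2, Pdk4 and Suclg1 held the full element, and a match describes letters only. GTAAACA, a FOXO core present in 3.17% of windows, and TCAAGGTCA, an ERR element present in 0.387%, were in no window of these genes on either strand.

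With TPM as deposited, G108 on SP raised all 8 genes that could be tested, where 77% of all genes tested were called higher and 77.6% in either direction (limma on log2(TPM + 1), adjusted p under 0.05). Most of the transcriptome was thus called, and 79.8% of all genes had an unadjusted p under 0.05, as had all 8. The median log2 fold change of the 8 genes was 1.06, from 0.64 in Cs to 2.14 in Fh1, against 0.60 over all genes. On scaled TPM, 1 of the 8 genes was called, Fh1, where 2.72% of all genes were called, and the median of the 8 was 0.31. At an unadjusted p under 0.05 there were 3 of 8 on that scale, Fh1, Ogdh and Mdh2, and 17.7% of all genes. The ninth gene, Pdk4, had a mean under 1 TPM and did not enter that test. The SP groups were apart in 5 of the 8 genes by TPM, beside 56.4% of all genes. By scaled TPM they were apart in 0 of the 8, beside 9.21% of all genes. On HP, G108 gave no call among the 8 genes on either scale, where 1.11% of all genes were called by TPM and 1.22% by scaled TPM. At an unadjusted p under 0.05, 2 of the 8 were past the threshold on HP on each scale, Fh1 and Idh3a, as were 11.9% of all genes in TPM and 11.3% in scaled TPM.

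Both libraries that stood apart moved the size of these values. Without vehicle SP mouse 4, the SP fold changes of the 8 genes had a median of 0.83 in TPM, with 8 called beside 72.9% of all genes. In scaled TPM their median was 0.15, and Fh1 was called, as were 233 of 11839 genes in that fit. Without G108 HP mouse 3, the HP fold changes ranged from 0.21 to 1.25 in TPM and from 0.0076 to 1.05 in scaled TPM, against 0.0054 to 1.15 and -0.12 to 1.03 with all mice. None of the 8 was called without that mouse, where 32 of 11839 genes were called in TPM and 17 in scaled TPM.

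**Figure D1:**
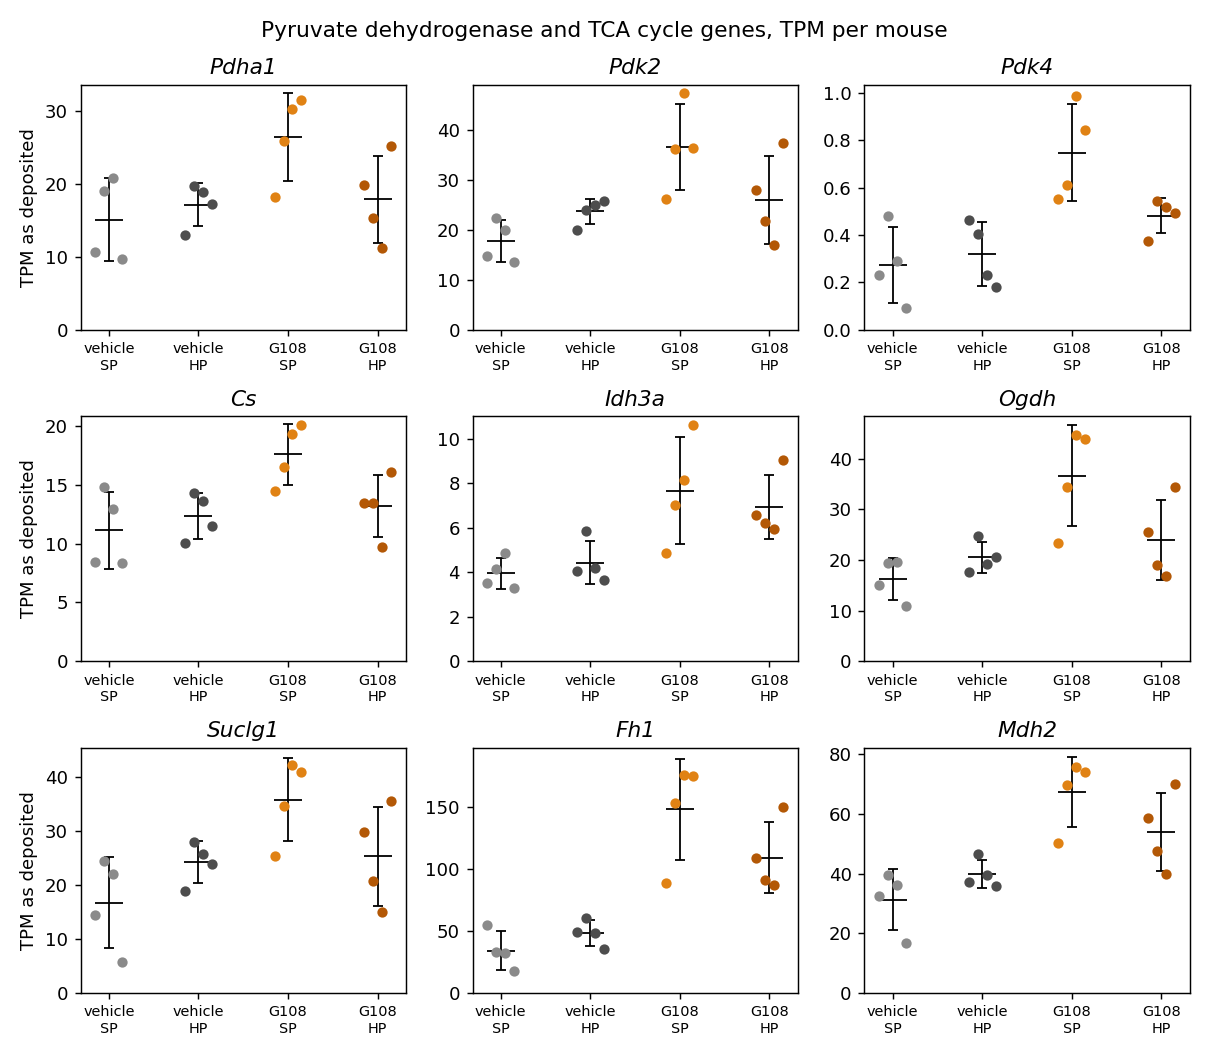
TPM as deposited (y axis, each from 0) of the 9 genes in the 4 groups (x axis); each point is 1 mouse and the bars are the mean and SD of 4 mice. The G108 SP mice sit highest in every panel by mean, and in Pdk2, Pdk4, Ogdh, Suclg1, Fh1 and Mdh2 they all lie above all vehicle SP mice. These groups are apart in 56.4% of all tested genes.

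Pdha1 (chromosome X, 160122209 to 160138413, GENCODE vM21 on GRCm38) encodes the subunit whose phosphorylation decides whether pyruvate dehydrogenase is active. Its level was 10.6, 19.1, 20.9 and 9.78 TPM in vehicle SP, and 18.3, 25.8, 30.2 and 31.5 TPM in G108 SP. In vehicle HP it was 12.98, 19.7, 18.9 and 17.2 TPM, and in G108 HP 19.8, 15.4, 11.3 and 25.2 TPM. On SP 1 G108 mouse lay below the 2 highest vehicle mice, and the HP groups interleaved. In TPM, the log2 fold change with G108 was 0.81 ± 0.27 (SE) on SP (limma, adjusted p = 0.0139) and 0.02 ± 0.27 on HP (limma, adjusted p = 0.994). On scaled TPM it was 0.08 on SP (95% CI -0.27 to 0.43, limma, adjusted p = 0.805) and -0.10 on HP. Without vehicle SP mouse 1 the TPM call on SP was lost (limma, adjusted p = 0.0502). Of the 3734 exon bases of Pdha1, 603 (16.1%) are shared with Map3k15 on the opposite strand, and whether the counting used strand is not given in the sources used here.

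Pdk2 (chromosome 11, 95026258 to 95041354) encodes a broadly expressed kinase isoform. Its TPM was 14.8, 22.5, 20.1 and 13.7 in vehicle SP, 20.1, 24.1, 25.1 and 25.8 in vehicle HP, 26.2, 36.3, 47.4 and 36.6 in G108 SP, and 28.1, 21.9, 16.9 and 37.5 in G108 HP. All G108 SP mice exceeded all vehicle SP mice in TPM, a separation seen in 56.4% of all genes, whereas the G108 HP mice lay on both sides of vehicle HP. On scaled TPM the SP groups overlapped, with vehicle SP up to 23.3 and G108 SP from 22.3, where 9.21% of all genes were apart. On SP the log2 fold change was 1.00 ± 0.23 in TPM (limma, adjusted p = 0.00245) and 0.25 in scaled TPM (95% CI -0.03 to 0.54, limma, adjusted p = 0.324). The values on HP, 0.08 in TPM and -0.04 in scaled TPM, did not pass the test.

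Pdk4 (chromosome 6, 5483351 to 5496309), the kinase isoform linked to fasting and fat oxidation, was the least abundant of the 9 genes, with 13 to 72 recovered reads per library. It was at 0.230, 0.478, 0.289 and 0.0938 TPM in vehicle SP and at 0.550, 0.610, 0.989 and 0.843 TPM in G108 SP. In vehicle HP it was at 0.463, 0.404, 0.232 and 0.182 TPM, and in G108 HP at 0.374, 0.543, 0.517 and 0.492 TPM. In TPM every G108 SP mouse lay above every vehicle SP mouse and above every G108 HP mouse, and the HP groups overlapped. By TPM the SP groups were apart in 56.4% of all tested genes, and the G108 groups in 20.7%. On scaled TPM Pdk4 overlapped in both of these comparisons, where 9.21% and 4.27% of all tested genes were apart. The ratio of mean TPM on SP was 2.74, with a two-sided exact permutation p of 0.0286, the smallest that 4 against 4 mice can give, and 0.114 after Benjamini-Hochberg adjustment over 8 such tests of Pdk4. On scaled TPM the ratio was 1.67 (exact permutation p = 0.0857). On HP it was 1.50 in TPM (exact permutation p = 0.114) and 1.40 in scaled TPM (exact permutation p = 0.2). Between the G108 groups, HP to SP was 0.643 in TPM (exact permutation p = 0.0286) and 0.909 in scaled TPM (exact permutation p = 0.514). With no filter on low values Pdk4 entered the fit across all genes, and its log2 fold change on SP was 0.46 in TPM (limma, adjusted p = 0.00612, with 32.7% of all genes called) and 0.22 in scaled TPM (limma, adjusted p = 0.418).

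Pdk2 was far more abundant than Pdk4 in every library. The log2 ratio of Pdk4 to Pdk2 in TPM, which no scaling of a library can alter, was -6.22 ± 0.69 (SD, n = 4) in vehicle SP, -6.31 ± 0.78 in vehicle HP, -5.62 ± 0.19 in G108 SP and -5.71 ± 0.62 in G108 HP. The log2 ratio of Pdk4 to its substrate gene Pdha1 was -5.93 ± 0.63 in vehicle SP, -5.83 ± 0.80 in vehicle HP, -5.15 ± 0.20 in G108 SP and -5.17 ± 0.64 in G108 HP. That of Pdk2 to Pdha1 was 0.29 ± 0.26, 0.48 ± 0.16, 0.47 ± 0.18 and 0.54 ± 0.04 in the same order. The Pdk4 ratios were higher by mean with G108 on both diets, with a spread among the vehicle mice about as large as the difference, and were not tested. The ratio of Pdk2 to Pdha1 overlapped between G108 and vehicle on each diet and between the diets under each treatment.

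Cs (chromosome 10, 128337734 to 128362479) encodes citrate synthase, which commits acetyl-CoA to the cycle. It was at 8.41, 14.8, 12.9 and 8.36 TPM in vehicle SP, 10.1, 14.3, 13.6 and 11.5 in vehicle HP, 14.4, 16.5, 19.4 and 20.1 in G108 SP, and 13.4, 13.5, 9.70 and 16.1 in G108 HP. Its log2 fold change with G108 on SP was 0.64 ± 0.20 in TPM (limma, adjusted p = 0.00912) and -0.08 in scaled TPM (95% CI -0.28 to 0.13, limma, adjusted p = 0.664). The TPM value lay next to the median of all genes, and the sign differed between the scales. Scaled levels of Cs spanned 11.5 to 15.3 in the 16 libraries, the narrowest relative range of the 9 genes.

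Idh3a (chromosome 9, 54586334 to 54604661) encodes the catalytic subunit of the NAD-dependent isocitrate dehydrogenase, a regulated step of the cycle. It was at 3.50, 4.13, 4.87 and 3.30 TPM in vehicle SP and at 4.85, 7.03, 8.16 and 10.6 TPM in G108 SP, groups that crossed in 1 mouse of each. On HP it was at 4.05, 5.86, 4.20 and 3.64 TPM with vehicle and 6.56, 6.21, 5.94 and 9.04 TPM with G108, so that every G108 HP mouse was above every vehicle HP mouse. The groups did not overlap on HP in 8.88% of all genes by TPM and in 8.15% by scaled TPM. G108 gave a log2 fold change on SP of 0.78 ± 0.20 in TPM (limma, adjusted p = 0.00365) and 0.12 in scaled TPM (limma, adjusted p = 0.596). The HP value was 0.55 ± 0.20 in TPM (limma, adjusted p = 0.246) and 0.44 ± 0.12 in scaled TPM (limma, adjusted p = 0.112). By limma-voom on the recovered reads the HP difference was 0.70 (adjusted p = 0.0448), which passed the threshold, as did 2.58% of all genes in that fit. The voom fit used read totals without median-of-ratios factors, and its median log2 fold change over all genes on HP was 0.17. The scaled fold change of Idh3a on HP was second to that of Fh1. The difference of its G108 response between the diets was not called (interaction 0.32 in scaled TPM, limma, adjusted p = 0.575).

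Ogdh (chromosome 11, 6291633 to 6356642) encodes the decarboxylating subunit of the oxoglutarate dehydrogenase complex. Its TPM was 15.1, 19.5, 19.5 and 10.9 in vehicle SP, 17.7, 24.8, 19.2 and 20.6 in vehicle HP, 23.4, 34.5, 44.7 and 43.9 in G108 SP, and 25.5, 19.0, 16.9 and 34.4 in G108 HP. In TPM the G108 SP mice were all above the vehicle SP mice, where 56.4% of all genes were apart. On scaled TPM Ogdh overlapped between the SP groups. Its log2 fold change on SP was 1.12 ± 0.25 in TPM (limma, adjusted p = 0.00204) and 0.37 ± 0.14 in scaled TPM (limma, adjusted p = 0.197). The HP values were 0.17 in TPM (limma, adjusted p = 0.911) and 0.05 in scaled TPM (limma, adjusted p = 0.94), and the groups overlapped.

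Suclg1 (chromosome 6, 73248382 to 73276911) encodes the alpha subunit of succinyl-CoA ligase. It was at 14.5, 24.6, 22.0 and 5.80 TPM in vehicle SP and 25.4, 34.7, 42.4 and 41.0 TPM in G108 SP. In vehicle HP it was at 18.9, 28.1, 25.9 and 24.0 TPM, and in G108 HP at 29.9, 20.8, 15.01 and 35.6 TPM. The lowest value belonged to vehicle SP mouse 4, the library that stood apart. With all mice the log2 fold change on SP was 1.20 ± 0.35 in TPM (limma, adjusted p = 0.00737) and 0.79 without that mouse (limma, adjusted p = 0.0191). In scaled TPM it was 0.46 with all mice (limma, adjusted p = 0.363) and 0.12 without it (limma, adjusted p = 0.808). On HP it was 0.0054 in TPM (95% CI -0.74 to 0.75) and -0.12 in scaled TPM (95% CI -0.68 to 0.44), neither past the test.

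Fh1 (chromosome 1, 175600374 to 175625635) encodes fumarase, which hydrates fumarate to malate in the mitochondrion and also has a cytosolic form that handles the fumarate released by the urea cycle and by amino acid breakdown. By mean TPM it was the most abundant of the 9 genes in all 4 groups, and it had the largest fold change with G108 on both diets. Its level was 54.9, 32.8, 31.8 and 17.3 TPM in vehicle SP, and 88.5, 154, 176 and 175 TPM in G108 SP. In vehicle HP it was 49.2, 60.4, 48.5 and 35.1 TPM, and in G108 HP 109, 91.5, 87.0 and 150.0 TPM. In TPM no G108 mouse overlapped with a vehicle mouse of either diet, where 56.4% of all genes were apart on SP and 8.88% on HP. The order of group means was vehicle SP (34.2 ± 15.5 TPM, SD, n = 4), vehicle HP (48.3 ± 10.3), G108 HP (109 ± 28.7) and G108 SP (148 ± 41.2), where the first pair and the last pair overlapped.

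The log2 fold change of Fh1 on SP was 2.14 ± 0.31 in TPM (95% CI 1.49 to 2.79, limma, adjusted p = 0.000291) and 1.38 ± 0.27 in scaled TPM (95% CI 0.81 to 1.95, limma, adjusted p = 0.0111). It stayed past the threshold on both scales with any 1 of the 16 libraries left out, over a range of 1.87 to 2.40 in TPM and 1.17 to 1.71 in scaled TPM. In scaled TPM the vehicle SP mice were at 79.1, 33.9, 35.6 and 25.3 and the G108 SP mice at 75.3, 116, 114 and 119, so that mouse 1 of each group crossed over. On HP the scaled levels were 58.9, 56.4, 53.0 and 40.1 with vehicle and 106, 96.6, 103 and 121 with G108, with no overlap, as in 8.15% of all genes. Its log2 fold change on HP was 1.15 ± 0.31 in TPM (95% CI 0.51 to 1.80) and 1.03 ± 0.27 in scaled TPM (95% CI 0.46 to 1.60), which missed the threshold (limma, adjusted p = 0.0915 and 0.088). By limma-voom on recovered reads, which took no median-of-ratios factors, it passed (1.23, adjusted p = 0.0219), where 2.58% of all genes were called. With 1 mouse left out it passed in 1 of 16 TPM fits, without vehicle SP mouse 4 (limma, adjusted p = 0.0347, with 1.77% of all genes called). It also passed in 2 of 16 scaled fits, without vehicle SP mouse 1 (limma, adjusted p = 0.0105, 1.47% of all genes) or mouse 4 (limma, adjusted p = 0.0427, 1.77%). Those mice are outside the HP groups and enter the shared estimate of spread. Without vehicle HP mouse 4 the adjusted p was highest, at 0.34 in TPM and 0.291 in scaled TPM (limma). Kmo overlaps Fh1 on the opposite strand but shares 0 exon bases with it.

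Mdh2 (chromosome 5, 135778480 to 135790398) encodes mitochondrial malate dehydrogenase, which closes the cycle at oxaloacetate. It was at 32.6, 39.5, 36.2 and 16.6 TPM in vehicle SP, 37.0, 46.5, 39.5 and 36.0 in vehicle HP, 50.3, 69.7, 75.6 and 73.9 in G108 SP, and 58.7, 47.6, 39.8 and 69.9 in G108 HP. In TPM the SP groups were apart, as in 56.4% of all genes, and on HP 1 G108 mouse lay within the vehicle range. On scaled TPM Mdh2 overlapped between the SP groups. Its log2 fold change on SP was 1.14 ± 0.24 in TPM (limma, adjusted p = 0.00176) and 0.38 ± 0.16 in scaled TPM (limma, adjusted p = 0.227). The HP values were 0.41 in TPM (limma, adjusted p = 0.573) and 0.29 in scaled TPM (limma, adjusted p = 0.543). In scaled TPM the HP groups did not overlap, as in 8.15% of all genes.

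**Figure D2:**
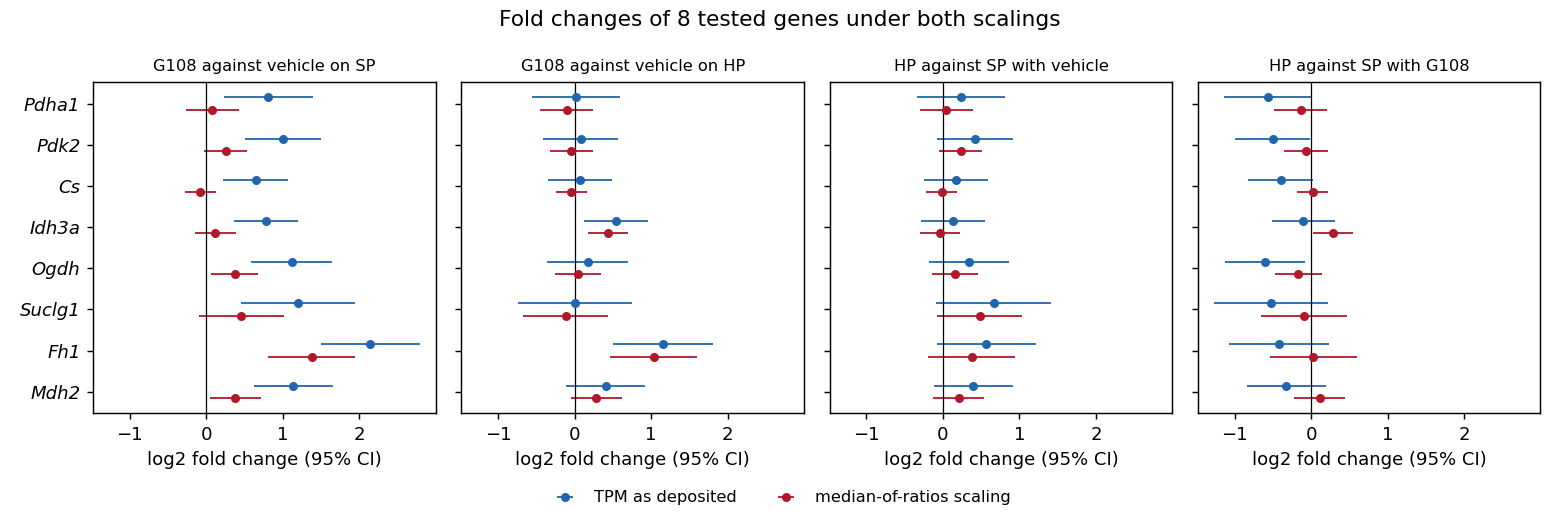
Log2 fold changes (x axis) with 95% confidence intervals of the 8 tested genes in 4 comparisons, from TPM as deposited (blue) and after median-of-ratios scaling (red). On SP the blue intervals all lie above 0 while of the red ones only those of Ogdh, Fh1 and Mdh2 do, and Fh1 is farthest to the right in both G108 comparisons.

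Because Cs moved least between groups after scaling, the other enzymes were also read relative to Cs in the same library, a choice made after its values were seen. These ratios are free of any scaling between libraries and were not tested. The log2 ratio of Fh1 to Cs was 1.55 ± 0.78 (SD, n = 4) in vehicle SP, 1.95 ± 0.29 in vehicle HP, 3.04 ± 0.28 in G108 SP and 3.04 ± 0.20 in G108 HP. On HP every G108 mouse exceeded every vehicle mouse, and on SP the exception was vehicle SP mouse 1 at 2.71, above the lowest G108 SP mouse at 2.62. Idh3a to Cs was -1.49 ± 0.22 in vehicle HP and -0.92 ± 0.19 in G108 HP without overlap, and overlapped on SP. Mdh2, Ogdh and Pdha1 relative to Cs overlapped between G108 and vehicle on both diets. Suclg1, Pdk2, Pdk4 and Idh2, a further cycle gene given below, did not overlap relative to Cs on SP, where the G108 mice were higher. On HP they overlapped. For Pdk4 the vehicle SP mice reached -4.95 and the G108 SP mice began at -4.76. Over all other tested genes, the ratio to Cs did not overlap between G108 and vehicle in 10.1% on SP and 5.76% on HP.

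**Figure D3:**
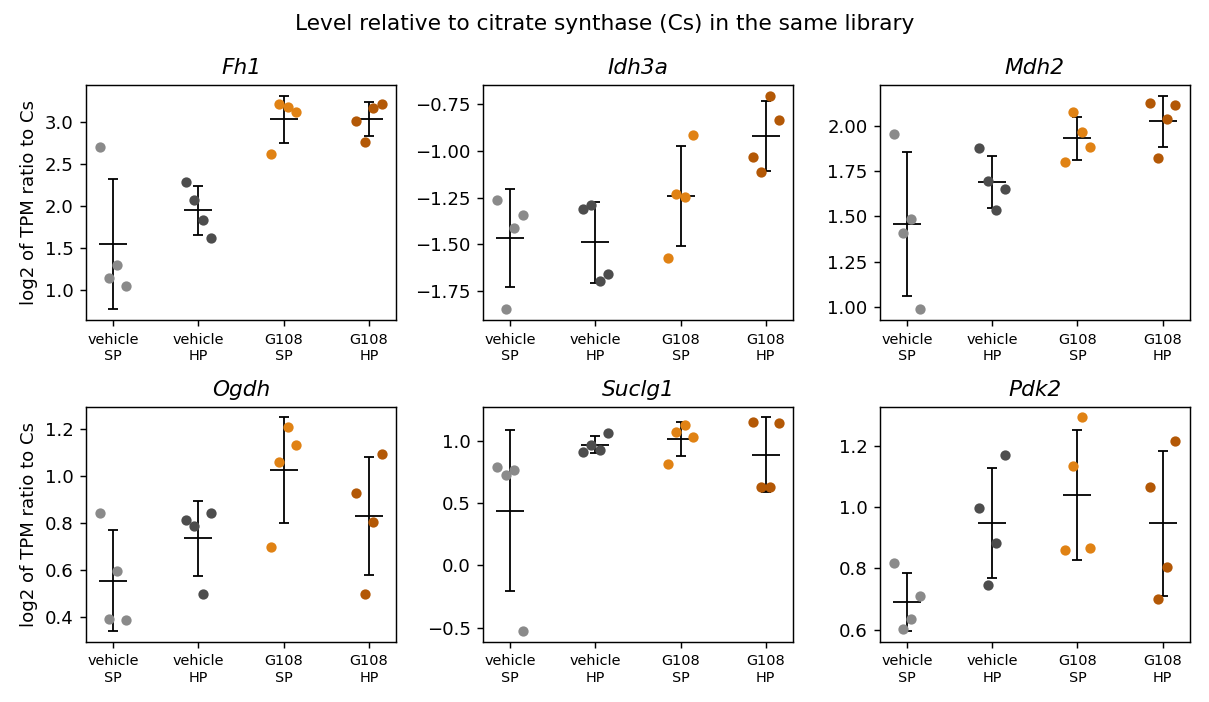
Log2 of the TPM ratio to Cs (y axis) for 6 genes in the 4 groups (x axis); each point is 1 mouse, and bars are the mean and SD of 4 mice. For Fh1 both G108 groups average 3.04, against 1.55 in vehicle SP and 1.95 in vehicle HP.

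Dietary protein gave no call among the 8 genes with either treatment on either scale, where 0% of all genes were called in each comparison (limma, adjusted p under 0.05). With vehicle, the 8 TPM fold changes of HP against SP lay between 0.13 and 0.66 and none had an unadjusted p under 0.05, a threshold passed by 3.16% of all genes in TPM and 3.94% in scaled TPM. With G108 they lay between -0.60 (Ogdh) and -0.10 (Idh3a), beside a median of -0.35 over all genes. Ogdh and Pdk2 had an unadjusted p under 0.05 there, as had 45% of all genes. In scaled TPM the values lay between -0.17 and 0.29, and only Idh3a had an unadjusted p under 0.05 (0.29, limma, adjusted p = 0.858), as had 5.4% of all genes. Leaving out G108 HP mouse 4 gave 3 TPM calls among the 8, all lower on HP, in a fit that called 42.6% of all genes, and leaving out G108 SP mouse 1 gave 1 beside 25.4% of all genes. Without G108 HP mouse 3 the TPM values lay between -0.46 and -0.041, and none was called, where 0 of 11839 genes were called.

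The G108 response itself was compared between the diets as the interaction of treatment and diet. None of the 8 genes was called on either scale, where 0% of all genes were called, and at an unadjusted p under 0.05 there were 4 of 8 in TPM (48% of all genes) and 0 of 8 in scaled TPM (7.22% of all genes). For Fh1 the interaction was -0.99 ± 0.43 in TPM (limma, adjusted p = 0.0907) and -0.35 ± 0.38 in scaled TPM (limma, adjusted p = 0.673). The TPM count was 5 without G108 HP mouse 4, where 43.9% of all genes were called. It was 3 without vehicle SP mouse 2 (29.3% of all genes) and 3 without G108 SP mouse 1 (33.4%).

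The rest of the pathway was followed through 26 other genes of pyruvate entry, pyruvate dehydrogenase, the cycle and their cytosolic counterparts, of which 24 were tested. On SP 23 of the 24 were called higher with G108 in TPM, beside 77% of all genes, and Pdk1 was not (0.34, limma, adjusted p = 0.185). In scaled TPM the value of Pdk1 on SP was -0.28, with means of 4.91 in vehicle SP and 3.81 in G108 SP, and was not called. On scaled TPM 1 of the 24 was called, beside 2.72% of all genes. It was Idh2, the NADP-dependent mitochondrial isocitrate dehydrogenase. Idh2 was at 16.5, 19.3, 20.3 and 11.5 TPM in vehicle SP and 43.7, 52.2, 62.2 and 48.2 TPM in G108 SP. These groups did not overlap on either scale, as in 56.4% of all genes by TPM and 9.21% by scaled TPM. The log2 fold change of Idh2 was 1.57 in TPM (limma, adjusted p = 0.000172) and 0.82 ± 0.12 in scaled TPM (limma, adjusted p = 0.00197). Under HP Idh2 was at 25.3, 28.2, 23.2 and 22.5 TPM with vehicle and 38.9, 28.4, 27.6 and 50.1 TPM with G108, and was not called in TPM (0.49, limma, adjusted p = 0.338) or in scaled TPM (0.37, limma, adjusted p = 0.207).

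The scaled fold changes on SP next in size were those of Sdhd and Sdha, neither of which was called. Sdhd, a membrane anchor of succinate dehydrogenase, had 0.76 (limma, adjusted p = 0.214). Sdha, its flavoprotein, had 0.64 (limma, adjusted p = 0.362). The other subunits of that enzyme, Sdhc and Sdhb, had 0.26 (limma, adjusted p = 0.447) and 0.01 (limma, adjusted p = 0.953). Sdhd and Sdha had their lowest value in vehicle SP mouse 4, at 18.0 TPM for Sdhd and 10.3 TPM for Sdha. This was not particular to them, as every gene of the set had its lowest vehicle SP TPM in that mouse. Of the other pathway genes, Mdh1, Sucla2 and Sdhc were among those that also did, whereas Pdhb, Pdk1, Idh3g, Dlst and Pcx did not. None of the 24 genes was called on HP, where 1.11% of all genes were called in TPM and 1.22% in scaled TPM. The largest scaled value on HP was -0.44 in Pdk1, a further kinase of the complex (limma, adjusted p = 0.222). The median scaled fold change of the 24 genes was 0.19 on SP and -0.0093 on HP, against 0.31 and 0.0048 for the 8 genes above. The 4 other tested subunits of the pyruvate dehydrogenase complex, Pdhb, Dlat, Dld and Pdhx, had scaled values from 0.09 to 0.41 on SP, and none was called. Pdk3 and the phosphatase gene Pdp1 fell under the filter, with at most 6 and 20 recovered reads per library.

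**Figure D4:**
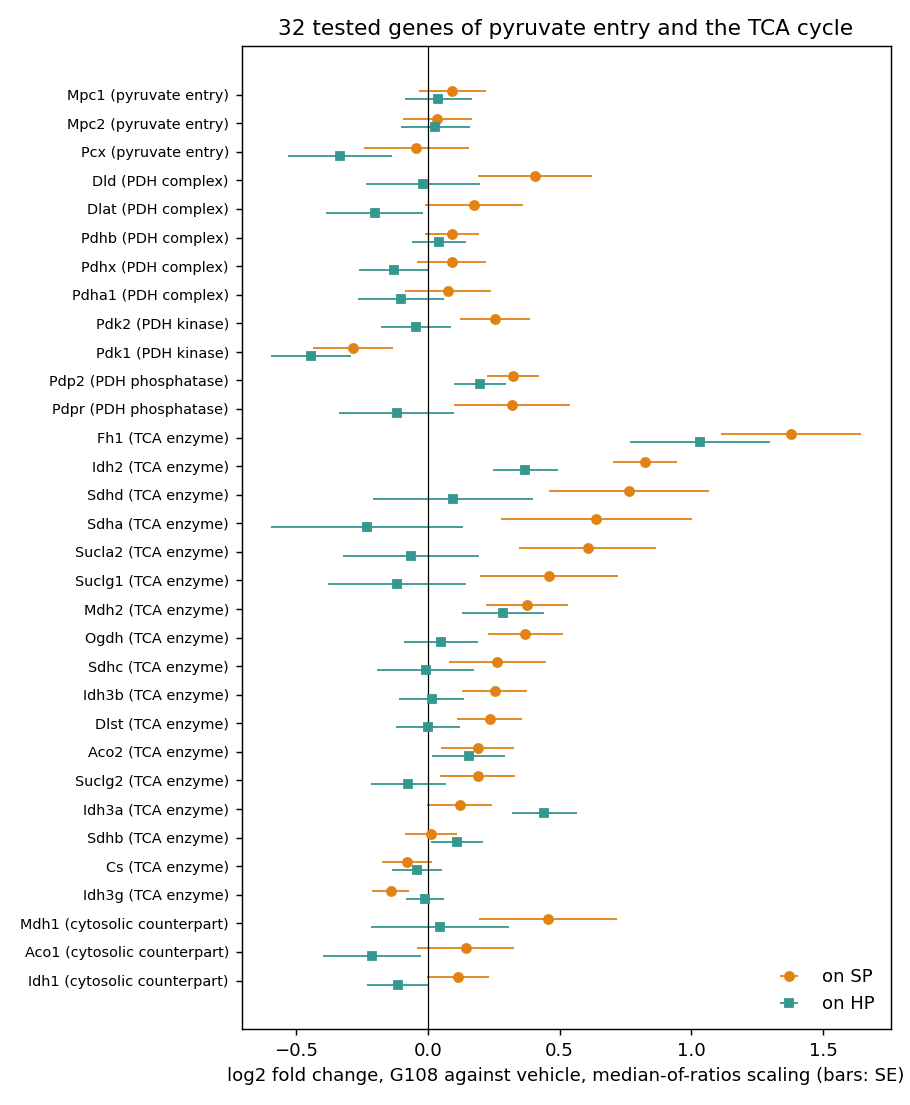
Scaled log2 fold change with G108 (x axis) on SP (orange circles) and HP (green squares) for the 32 tested genes, grouped by role; bars are the SE. Fh1 and Idh2 lie farthest to the right on SP at 1.38 and 0.82. On SP 7 of the 8 genes of the set and 21 of the 24 others lie above 0, with medians of 0.31 and 0.19. On HP 4 and 11 do, with medians of 0.0048 and -0.0093.

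Of 7 regulators known to act on Pdk4 transcription, 5 were called higher on SP in TPM, beside 77% of all genes, and 1 in scaled TPM, beside 2.72% called in either direction. That 1 was Ppargc1a, the coactivator PGC-1alpha. Ppargc1a was at 1.11, 0.634, 0.770 and 0.449 TPM in vehicle SP and 2.43, 3.75, 4.73 and 3.32 TPM in G108 SP. In vehicle HP it was at 0.786, 0.967, 0.887 and 0.987 TPM, and in G108 HP at 1.77, 2.36, 1.81 and 2.77 TPM. Its groups did not overlap on either diet or scale. Groups were apart in 56.4% of all genes by TPM and 9.21% by scaled TPM on SP, and in 8.88% and 8.15% on HP. Ppargc1a rose by 1.38 in TPM and 0.89 in scaled TPM on SP (limma, adjusted p = 8.1e-05 and 0.00274). On HP it was the only regulator called, at 0.73 and 0.66 (limma, adjusted p = 0.0338 and 0.0337), beside 1.11% and 1.22% of all genes. Without vehicle HP mouse 4, 0 of 11839 genes were called on HP in TPM, so that this call was lost. In scaled TPM on SP, Foxo1 and Foxo3, the forkhead factors of fasting, had 0.27 (limma, adjusted p = 0.253) and 0.25 (limma, adjusted p = 0.291). The nuclear receptor gene Ppara had -0.04 (limma, adjusted p = 0.926).

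The genes whose scaled profile over the 16 libraries lay closest to a member were found by the root mean square difference of centred log2 values. For Pdk4 they were Mrps6 (0.0731), Ywhaz (0.0833) and Slbp (0.0893), where the profile of Pdk4 itself had a root mean square of 0.151. For Pdk2 they were Cxxc5 (0.104), Pitrm1 (0.105) and Adal (0.105), with 0.188 for Pdk2 itself. For the mean of the 7 enzyme genes they were Gnai3 (0.0803), Ociad2 (0.081) and Jup (0.0856), with 0.232 for that mean. Fh1 was added to this search after its values were seen, and its nearest genes were Slc7a2 (0.160), Ctcflos (0.178) and Ass1 (0.187), with 0.709 for Fh1 itself.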

How the data were processed

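Liver RNA from 16 mice was measured by RNA sequencing. The authors deposited 1 table of TPM for 55487 Ensembl genes, a length-corrected share of each library. The submitters' processing notes name FastQC 0.11.8, HISAT2 2.0.5, featureCounts, DESeq2 1.36.0 and GRCm38. By the study's methods, the reads of each gene were divided by its exon length and scaled to the mapped total. Symbols and exon lengths came from GENCODE vM21 (55227 genes matched), and promoters from RefSeq (GRCm38.p6). Groups came from the sample titles.

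Genes with a mean of at least 1 TPM (11839) were fitted in limma 3.58.1 (R 4.3.3) as log2(TPM + 1), with a trended prior, 4 groups in 1 model and no covariates. Fold changes are on that scale and understate those of low genes. P-values were adjusted by Benjamini-Hochberg over all genes, and a call is an adjusted p under 0.05. The second scale divided TPM by median-of-ratios factors over 11591 genes found in every library. Low TPM values (up to 20 reads) were within 0.02 of a whole number of reads in 98.7% of 139252 cases, which gave the depths. Pdk4 was tested by two-sided exact permutation (SciPy 1.17.1). The scripts were tested on simulated data.

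The 9 genes, the 26 other pathway genes, the 7 regulators and the marker lists were chosen by role, with earlier results of these data known. Text names all 9, every gene of the other lists called on a scale, and otherwise up to 3 per comparison with the largest scaled fold change, plus Foxo1, Foxo3, Ppara and the subunits Pdhb, Dlat, Dld, Pdhx, Sdhb and Sdhc, named after their values were seen. The 3 genes closest to Pdk4, Pdk2 and the enzymes' mean profile were named by smallest root mean square difference.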

Additional observations from a re-analysis of the deposited data

Results flagged for a closer look

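Among 72 groups of 4 values of the 9 genes (both scales), 1 held a sample far from the others by Dixon's criterion, where chance gives about 1 in 20. In G108 SP the scaled TPM of Fh1 was 75.3 (75.29) in mouse 1, while the nearest mouse was at 114.1 and the highest at 119.1. The gap was 0.887 of the group's range, above the critical value for 4 samples. Without that mouse the scaled log2 fold change of Fh1 with G108 on SP was 1.53 (limma, adjusted p = 0.00753).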

How the results depend on the processing

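Scaling decided most calls on SP. Of the 8 genes called in TPM, 1 was called with median-of-ratios scaling, 1 after rescaling TPM over genes other than mitochondrial-genome and Mup genes, 1 with median-of-ratios scaling and mouse number as a replicate block, and 1 with that scaling and no filter on low values, an alternative chosen after seeing the data. In that order these fits called 322, 275 and 213 of 11839 genes, and 233 of 32076. The TPM fit called 9185 of 11839. A pseudocount of 0.1, no filter, a minimum mean of 5 TPM, the block alone (8 genes) and limma-voom on recovered reads left the SP count within 1.5 times. Across fits that leave out 1 mouse on either scale, the number of the 8 genes called ranged from 1 to 8 on SP, 0 to 1 on HP, 0 to 3 for HP against SP with G108 and 0 to 5 for the interaction. Of all 11839 genes, the same fits called 158 to 9348 on SP and 0 to 210 on HP. They called 0 to 5047 for HP against SP with G108 and 0 to 5202 for the interaction. On HP limma-voom, run without median-of-ratios factors, called 2 of the 8 genes and 2.58% of all genes. An arm of 3 mice shared the pooled spread.

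Signs of small values turned with the scaling, and the cause was not tested. With median-of-ratios scaling, alone or with the block or without a filter, Cs was -0.078 on SP, -0.040 on HP, 0.021 for HP against SP with G108, -0.017 with vehicle and 0.038 for the interaction. Idh3a was 0.29 for HP against SP with G108, -0.033 with vehicle and 0.32 for the interaction. Between the G108 groups Fh1 was 0.028 and Mdh2 0.11. On HP, Pdha1 was -0.10, Pdk2 -0.044 and Suclg1 -0.12. After rescaling without mitochondrial-genome and Mup genes, Cs was -0.12 on HP, -0.019 on SP and -0.024 for diet with vehicle. Idh3a was then 0.17, -0.042 and 0.22 in the order above. Ogdh on HP was -0.027, Pdha1 -0.18, Pdk2 -0.12 and Suclg1 -0.20. By limma-voom Idh3a was 0.086 for HP against SP with G108.

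Leaving out 1 mouse on either scale gave these ranges where a sign turned. Cs ranged from -0.13 to 0.78 on SP, -0.085 to 0.21 on HP, -0.50 to 0.071 for diet with G108, -0.067 to 0.31 for diet with vehicle and -0.71 to 0.088 for the interaction. Idh3a ranged from -0.0005 to 0.95 on SP, -0.27 to 0.41 for diet with G108, -0.091 to 0.22 for diet with vehicle and -0.41 to 0.44 for the interaction. Fh1 ranged from -0.65 to 0.091 for diet with G108. Mdh2 ranged from -0.46 to 0.16 for diet with G108 and -0.86 to 0.11 for the interaction. On HP, Ogdh ranged from -0.037 to 0.31, Pdha1 from -0.18 to 0.21, Pdk2 from -0.13 to 0.26 and Suclg1 from -0.21 to 0.22. Pdha1 ranged from -0.022 to 0.98 on SP and -0.055 to 0.40 for diet with vehicle. For diet with G108, Pdk2 ranged from -0.69 to 0.031 and Suclg1 from -0.71 to 0.040.

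Mouse numbers did not pair the libraries: over 24 same-number pairs the correlation of deviations ran from -0.575 to 0.527, with 8 over 0.1, and 3 of 16 libraries correlated best with their own number. The replicate block changed no count of calls among the 8 genes. With 13 to 72 reads per library, counting error limits Pdk4, and 4 mice per group limit the rest.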
